A study of Mus musculus with 6 samples.

Results

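The 10 genes described here are classic targets of glucocorticoid hormones: Fkbp5, Tsc22d3, Zbtb16, Klf9, Sgk1, Ddit4, Angptl4, Mertk, Mt1 and Mt2. They were selected by name, as probe sets whose only gene symbol in the platform annotation is 1 of the 10, out of 19938 genes with a named probe set. Each gene had 1 such probe set, and all 10 lay above the intensity filter of the test. None of them rose or fell past the adjusted threshold. The range of the single wild-type arrays was often larger than the difference between genotype means, which is an unlike measure.

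Left ventricle of male mice gave 3 MURC knockout samples, labelled as 11, 11 and 13 weeks old, and 3 wild-type samples, labelled as 13, 13 and 12 weeks old. Both groups are on a C57BL/6 background. MURC is cavin-4, a coiled-coil protein of muscle caveolae whose gene is Cavin4. The making of the allele, littermate status and the hour of collection were not given in the sources used here. Each sample is 1 array. Samples of different age came from different mice, but no label says so of those with the same genotype and age, so part of the spread behind the p-values may be technical.

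Glucocorticoids are steroid hormones of the adrenal cortex, corticosterone in the mouse, released with the daily cycle and under stress. They bind the glucocorticoid receptor, the product of Nr3c1, which waits in the cytoplasm in a complex with Hsp90 chaperones and then enters the nucleus and binds palindromic response elements in DNA. Heart muscle cells, fibroblasts, vascular cells and macrophages all carry the receptor. Many of its targets also answer to other signals, such as fasting, low oxygen, metals or the clock.

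The start sites of 8 of the 10 genes are in RefSeq's promoter table of GRCm38.p6, all but Angptl4 and Zbtb16, and 3 of these windows are shown because they hold matches to the elements through which glucocorticoids and metals are known to act. Each window runs from 250 bases before to 50 bases after a start site, 5′ to 3′ on the gene's strand. Capitals in the Sgk1 window mark AGAACA or its complement TGTTCT, the arms of the glucocorticoid response element. Capitals in the windows of Mt2 and Mt1, which lie next to each other on chromosome 8, mark the metal response cores TGCGCNC and TGCACNC on either strand. The windows are chr10:21993640-21993939 (plus strand) for Sgk1, chr8:94172368-94172667 (plus strand) for Mt2 and chr8:94178839-94179138 (plus strand) for Mt1.
Sgk1: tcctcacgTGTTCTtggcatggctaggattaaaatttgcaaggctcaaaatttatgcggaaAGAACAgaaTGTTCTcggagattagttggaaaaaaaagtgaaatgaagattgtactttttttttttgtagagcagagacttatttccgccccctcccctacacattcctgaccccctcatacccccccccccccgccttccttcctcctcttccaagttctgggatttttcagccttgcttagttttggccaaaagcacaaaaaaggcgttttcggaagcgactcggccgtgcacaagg
Mt2: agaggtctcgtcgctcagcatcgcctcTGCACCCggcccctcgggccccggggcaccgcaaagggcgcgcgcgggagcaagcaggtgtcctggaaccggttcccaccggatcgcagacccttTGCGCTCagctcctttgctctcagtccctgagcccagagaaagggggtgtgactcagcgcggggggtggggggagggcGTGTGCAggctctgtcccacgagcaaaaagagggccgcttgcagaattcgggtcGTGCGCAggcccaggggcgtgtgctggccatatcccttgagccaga
Mt1: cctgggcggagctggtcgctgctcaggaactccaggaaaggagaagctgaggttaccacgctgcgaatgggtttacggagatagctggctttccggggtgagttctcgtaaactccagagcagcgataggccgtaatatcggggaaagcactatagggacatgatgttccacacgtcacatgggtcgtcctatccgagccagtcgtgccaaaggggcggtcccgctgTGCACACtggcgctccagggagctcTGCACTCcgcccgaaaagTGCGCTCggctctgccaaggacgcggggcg

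The Sgk1 window is that of 1 of 6 annotated start sites of the gene and holds the whole palindrome, both arms with 3 bases between them. That palindrome occurs in 3 of 32851 promoter windows (0.00913%), on both strands, and in none of the other windows of these genes. Either arm alone is common, in 19% of all windows. Both metallothionein windows hold several metal response cores, 4 in Mt2 and 3 in Mt1, without overlap among them, and 25.7% of all windows hold at least 1. The cores are not particular to these genes, since the Ddit4 window and another Sgk1 window hold 1 each. A single arm also lies in 1 Tsc22d3 window and in other Sgk1 windows. A match describes these letters only, and the receptor often acts from sites far outside such windows.

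Each array followed its genotype label at the targeted gene. Cavin4 signal, on the log2 scale, was 5.38, 5.74 and 5.59 in knockout replicates 1, 2 and 3, against 8.75, 8.62 and 8.07 in wild-type replicates 1, 2 and 3 (log2 change -2.91, SE 0.18, limma adjusted p = 0.012). That probe set was the only 1 of 24898 past the adjusted threshold of 0.05. Wild-type replicate 1 held the highest of the 6 values for 36.4% of the genes tested. Knockout replicate 2 stood apart in the atrial muscle markers, with Myl7, an atrial myosin light chain, at 7.22 on that array and between 3.61 and 4.11 on the other 5. The general cardiomyocyte markers were level, with summed log2 signal of 15.26 to 15.27 in the knockout and 15.28 to 15.30 in the wild type. That list does not tell ventricle from atrium.

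Feedback and transcriptional regulators come first. Fkbp5 encodes a co-chaperone that lowers the hormone affinity of the receptor, and is the standard readout of its activity. Its log2 signal was 6.56, 6.69 and 6.92 in knockout replicates 1 to 3, against 6.37, 6.10 and 6.97 in wild-type replicates 1 to 3. The genotypes overlapped: wild-type replicate 3 was the highest array and wild-type replicate 2 the lowest. The knockout averaged 6.72 ± 0.18 and the wild type 6.48 ± 0.45 (SD, n = 3), and the log2 change was 0.24 (SE 0.21, limma adjusted p = 0.683). The 95% interval ran from -0.26 to 0.74. The change was 0.49 without wild-type replicate 3 and 0.05 without wild-type replicate 2.

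Tsc22d3 encodes GILZ, the glucocorticoid-induced leucine zipper protein, which restrains inflammatory transcription factors. Its log2 signal was 7.10, 7.25 and 7.56 in knockout replicates 1 to 3, against 7.04, 6.74 and 7.41 in wild-type replicates 1 to 3. Wild-type replicate 3 again lay among the knockout values, and the other 2 wild-type arrays lay below all of them. The log2 change was 0.24 (SE 0.18, limma adjusted p = 0.634).

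Zbtb16 encodes PLZF, a zinc finger repressor. It measured 9.77, 9.97 and 10.08 in knockout replicates 1 to 3, against 9.45, 9.54 and 10.09 in wild-type replicates 1 to 3. Wild-type replicate 3 was as high as the highest knockout array, and the other 2 wild-type arrays lay below all knockouts. The log2 change was 0.25 (SE 0.17, limma adjusted p = 0.59).

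Klf9, a Krüppel-like factor induced by glucocorticoids and by the clock, lay the other way. Its log2 signal was 8.96, 8.91 and 8.84 in knockout replicates 1 to 3, against 9.08, 8.95 and 9.10 in wild-type replicates 1 to 3. Knockout replicate 1 lay just above wild-type replicate 2, so the genotypes overlapped by 1 array. The log2 change was -0.14 (SE 0.07, 95% interval -0.29 to 0.01, limma adjusted p = 0.41).

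The signalling genes are Sgk1 and Ddit4. Sgk1, the serum- and glucocorticoid-regulated kinase, controls ion channels and transporters and has the full palindrome shown above at 1 of its start sites. It measured 6.54, 6.68 and 6.65 in knockout replicates 1 to 3, against 6.42, 6.15 and 6.59 in wild-type replicates 1 to 3. The knockout arrays kept within 0.14 of each other and the wild-type arrays spread over 0.44. The log2 change was 0.24 (SE 0.12, limma adjusted p = 0.441). The array does not tell which of the start sites was used.

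Ddit4, also called REDD1, is a stress-induced inhibitor of the growth kinase complex mTORC1. It had the largest difference of the 10. Its log2 signal was 7.45, 7.68 and 7.96 in knockout replicates 1 to 3, against 6.85, 6.73 and 7.55 in wild-type replicates 1 to 3. The overlap rested on wild-type replicate 3, which lay above knockout replicate 1, while the other 2 wild-type arrays lay at least 0.6 lower than any knockout array. The knockout averaged 7.70 ± 0.26 and the wild type 7.04 ± 0.44 (SD, n = 3), 1.57-fold or a log2 change of 0.65 (SE 0.22, 95% interval 0.13 to 1.18, unadjusted p = 0.021, limma adjusted p = 0.272). Over 16 alternative settings the change lay between 0.50 and 0.91 and the adjusted p between 0.111 and 0.592.

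**Figure D1:**
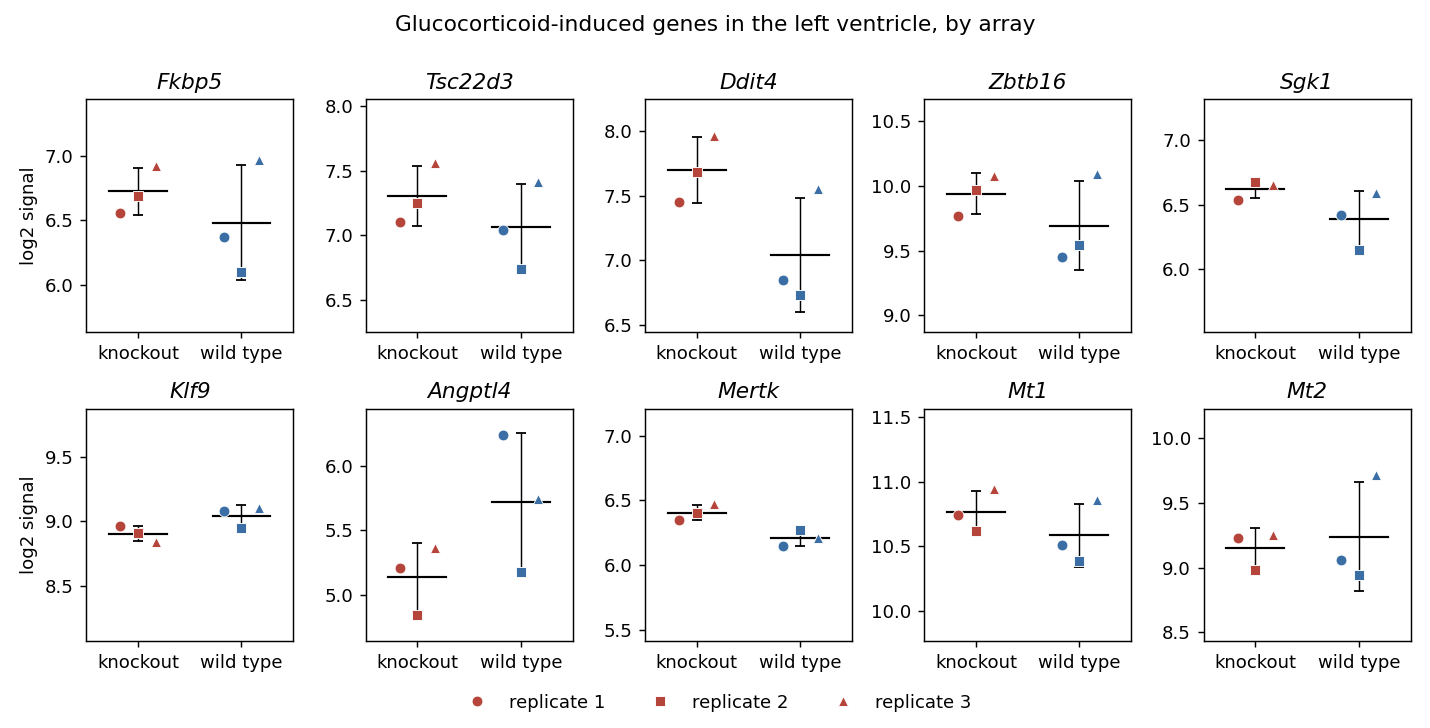
Log2 signal of each of the 10 genes on the 3 knockout arrays (red, left) and the 3 wild-type arrays (blue, right); every panel spans the same range of log2 units, horizontal bars are means and error bars SD (n = 3), and the marker shape gives the replicate number. Wild-type replicate 3 (triangle) lay above the other 2 wild-type arrays in 8 of 10 genes, and only Mertk had genotypes that did not overlap.

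Angptl4 and Mertk act outside the cell or at its surface. Angptl4 is a secreted inhibitor of lipoprotein lipase, induced by fatty acids through PPAR receptors and by low oxygen as well as by glucocorticoids. Its log2 signal was 5.21, 4.84 and 5.36 in knockout replicates 1 to 3, against 6.24, 5.18 and 5.74 in wild-type replicates 1 to 3. Wild-type replicate 2 lay among the knockout arrays and the other 2 wild-type arrays lay above them. The knockout averaged 5.14 ± 0.27 and the wild type 5.72 ± 0.53 (SD, n = 3), and the log2 change was -0.58 (SE 0.26, unadjusted p = 0.0596, limma adjusted p = 0.385). It was -0.85 without wild-type replicate 2 and -0.32 without wild-type replicate 1.

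Mertk is a receptor tyrosine kinase with which macrophages take up dying cells. Its log2 signal was 6.35, 6.40 and 6.47 in knockout replicates 1 to 3, against 6.15, 6.27 and 6.21 in wild-type replicates 1 to 3. All knockout arrays lay above all wild-type arrays, the only 1 of the 10 genes of which this held. The log2 change was small, 0.20 (SE 0.08, 95% interval 0.02 to 0.37, unadjusted p = 0.0333, limma adjusted p = 0.318). Over all 15298 genes tested, 9609 measured lower in the knockout. Of 10 macrophage markers, 9 measured lower in the knockout and 1 higher, 0 past the adjusted threshold. Their summed log2 signal was 10.51 to 10.79 in the knockout and 10.60 to 11.04 in the wild type, and the lowest marker on any array measured 4.59. The Mertk difference had the opposite sign to that of most macrophage markers, and their part in it was not tested. In tissue RNA, fewer cells of a type and less RNA per cell cannot be told apart.

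Mt1 and Mt2 encode metallothioneins, small proteins that bind zinc and copper and are induced by metals and by glucocorticoids. Mt1 measured 10.74, 10.62 and 10.94 in knockout replicates 1 to 3, against 10.51, 10.39 and 10.86 in wild-type replicates 1 to 3. Its log2 change was 0.18 (SE 0.13, limma adjusted p = 0.619). Mt2 measured 9.23, 8.98 and 9.25 in knockout replicates 1 to 3, against 9.06, 8.94 and 9.72 in wild-type replicates 1 to 3. Its log2 change was -0.09 (SE 0.20, limma adjusted p = 0.89), and 0.15 without wild-type replicate 3. In both genes wild-type replicate 2 was the lowest array, but wild-type replicate 3 exceeded every knockout array in Mt2 only. The sequences of Mt1 and Mt2 are alike, and to what degree either probe set reads the other's transcript was not tested.

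Counted together, 7 of the 10 genes measured higher in the knockout and 3 lower. The median of their log2 changes was 0.22. Over all 15298 genes tested the median was -0.04 and 37.2% measured higher, and 40.9% of all probe sets did. The balance of all probe sets followed the scaling, with 48.1% higher after quantile normalization, whereas the 7 and 3 were unmoved by it. No member passed the adjusted threshold in limma, where 0.00402% of all probe sets did. An unadjusted p under 0.05 was found for 2 of 10, Ddit4 and Mertk, both higher, against 13.7% of all probe sets in either direction and 4.71% in the higher direction. Genotypes without overlap were found in 1 of 10, against 19% of all probe sets in either direction and 6.12% in the higher direction. Of the 15298 genes tested, 383 were higher and 1372 lower at an unadjusted p under 0.05, and 710 higher and 2155 lower did not overlap. With 10 genes, 1 or 2 calls are close to the background shares in either direction. The calls were all higher, where the shares are smaller, but so few genes give no firm share. All 3 smooth muscle markers also measured higher in the knockout, with a median log2 change of 0.35, and their summed log2 signal was 9.07 to 9.11 in the knockout, against 8.71 to 9.09 in the wild type. The muscle myosin gene Myh11 measured 0.35 and the actin-binding protein gene Tagln 0.42 (unadjusted p = 0.00172 and 0.0219, limma adjusted p = 0.113 and 0.276), both without overlap, and Acta2, smooth muscle actin, measured 0.10 with overlap. The part of these markers in the members' values was not tested.

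Which array was left out moved these counts more than any change of scaling. Without wild-type replicate 3, 6 genes had an unadjusted p under 0.05, all higher, where 13.4% of all probe sets reached that level and 3.93% did so in the higher direction. The count was 0 without knockout replicate 3 (9.24% of all probe sets), 0 without wild-type replicate 1 (12.5%) and 1 without knockout replicate 2 (12%). Genotypes did not overlap in 7 genes without wild-type replicate 3, all higher, where 30.9% of all probe sets did so and 8.95% in that direction. Without knockout replicate 1 there were 4 and without wild-type replicate 2 there were 3, against 28.2% and 29.7% of all probe sets in either direction. The 7 genes are Fkbp5, Tsc22d3, Ddit4, Zbtb16, Sgk1, Mertk and Mt1. No member passed the adjusted threshold with any array left out, and the smallest adjusted p in limma was 0.136, for Ddit4 without wild-type replicate 3.

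**Figure D2:**
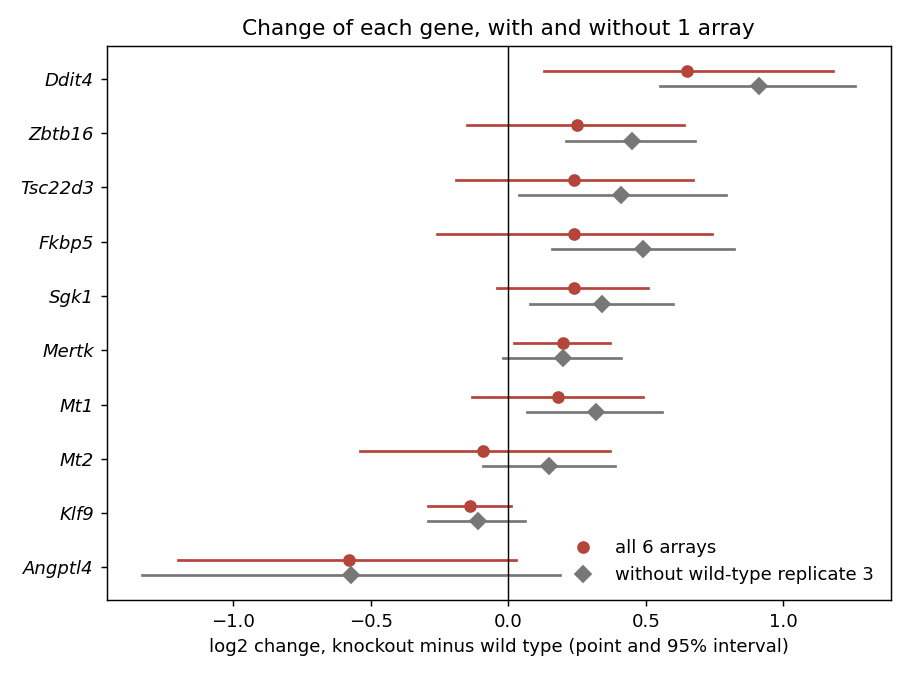
Log2 change (knockout minus wild type) with its 95% interval from limma for each gene, over all 6 arrays (red circles) and without wild-type replicate 3 (grey diamonds). The intervals of Ddit4 and Mertk exclude 0 over all arrays, and those of Ddit4, Zbtb16, Fkbp5, Tsc22d3, Sgk1 and Mt1 do so without that array. Among removals of a single array, the one shown gave the largest median log2 change of these genes, 0.33. The median was 0.22 over all arrays and 0.08 without wild-type replicate 2, which is not shown.

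The arrays of each genotype kept a similar order in most of these genes. All 3 knockout arrays measured above both wild-type replicates 1 and 2 in 7 of 10 genes, where this held for 7.37% of all genes tested. These are the same 7 genes whose genotypes did not overlap without wild-type replicate 3, so the count adds no new result. This pair of wild-type arrays, like the other orders given here, was not planned before the values were seen. Most of the 7 co-vary, as described below, so they are not separate observations. Wild-type replicate 3 measured above the other 2 wild-type arrays in 8 of 10 genes, where this held for 22.9% of all genes tested. Wild-type replicate 2 measured below the other 2 in 8 of 10, where it held for 36.4%. It was the lowest of all 6 arrays in 6 of the 10, Fkbp5, Tsc22d3, Sgk1, Ddit4, Mt1 and Mt2, and in 15.8% of all genes. Fkbp5 differed by 0.87 between wild-type replicates 3 and 2, its highest and lowest arrays. Its difference between genotypes, 0.24, is one between means of 3 arrays, so the 2 values are not like measures. Among the knockouts, replicate 3 was highest in 8 of 10 genes, against 32.1% of all genes. The wild-type range exceeded the knockout range in 9 of 10, where this held for 57% of all genes.

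Age differs between the arrays. Knockout replicate 3, high in most of these genes, is labelled 13 weeks and the other 2 knockouts 11 weeks. Wild-type replicates 1 and 2, low in most, are labelled 13 weeks and wild-type replicate 3, high in most, 12 weeks. The part of age in the order was not tested. At 13 weeks Ddit4 measured 7.96 in the knockout array, against 6.85 and 6.73 in the wild-type arrays. It measured 7.45 and 7.68 in the knockout arrays at 11 weeks and 7.55 in the wild-type array at 12 weeks. With age as a covariate the log2 change of Ddit4 was 0.66 (limma unadjusted p = 0.0611, against 0.021 without age, adjusted p = 0.388). In that fit Klf9 measured -0.19 and Mertk 0.23 (limma unadjusted p = 0.0364 and 0.0444, adjusted p = 0.314 and 0.342).

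**Figure D3:**
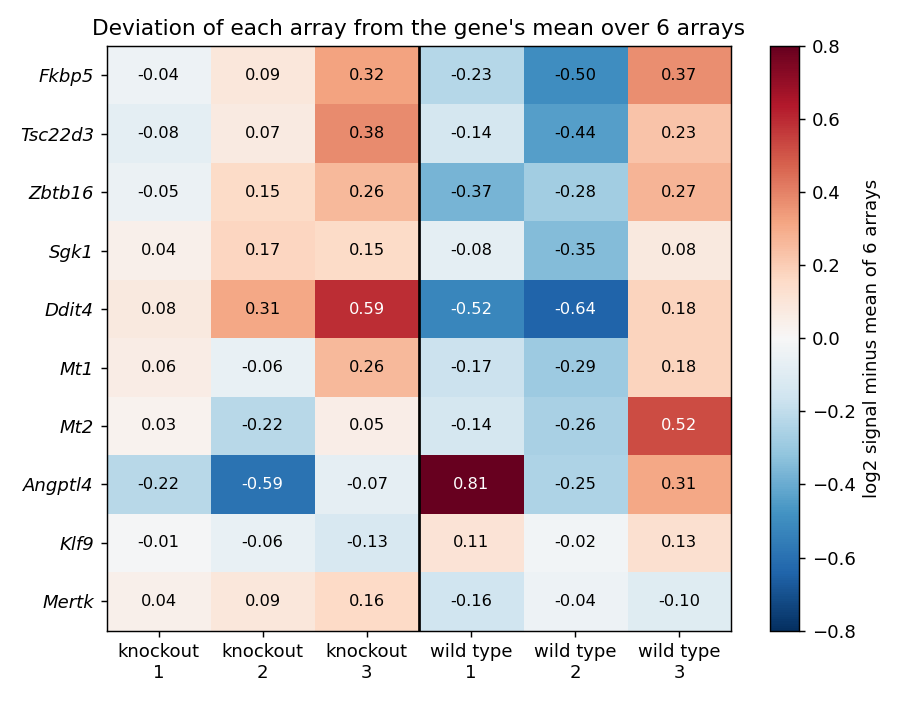
Deviation of each array's log2 signal from the gene's mean over the 6 arrays, knockout replicates on the left of the line and wild-type replicates on the right. Knockout replicate 3 and wild-type replicate 3 are above the mean and wild-type replicates 1 and 2 below it in the upper 7 rows, while Angptl4, Klf9 and Mertk follow other orders.

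Co-variation over the 6 arrays was computed for all 45 pairs of the 10 genes. The median Pearson r was 0.50, beside 0.09 over all pairs of the 15298 genes tested, and 13 pairs (28.9%) had an r of at least 0.8, beside 4.56%. The median was 0.63 after quantile normalization. After each array was set against the mean of its own genotype, the median was 0.51, beside 0.08, and 17 pairs (37.8%) reached 0.8, beside 6.71%. The co-variation was thus as high within genotypes. All genes of an array share its RNA, labelling and scaling, and these values are descriptions.

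Fkbp5 and Tsc22d3 were the most alike, with r = 0.97 (exact permutation p = 0.00278, adjusted p = 0.0694 over 45 pairs) and rho = 0.94 (exact permutation p = 0.0167, adjusted p = 0.15). Without wild-type replicates 2 and 3, the arrays farthest from the median of Fkbp5, r was 0.96. Fkbp5 also followed Mt1 (r = 0.94, rho = 0.89, exact permutation p = 0.00833 and 0.0333, adjusted p = 0.0694 and 0.167) and Zbtb16 (r = 0.92, rho = 0.94, exact permutation p = 0.00972 and 0.0167, adjusted p = 0.0694 and 0.15). Without the same 2 arrays these were 0.87 and 0.96. Sgk1 and Ddit4 had r = 0.91 and rho = 0.94 (exact permutation p = 0.00556 and 0.0167, adjusted p = 0.0694 and 0.15), and r = 0.73 without wild-type replicates 1 and 2. No pair passed an adjusted p of 0.05, and 16 had an unadjusted permutation p of r under 0.05. The 720 orders of 6 arrays allow no p below 0.00139.

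A block of 6 genes was named after their values were seen, Fkbp5, Tsc22d3, Zbtb16, Sgk1, Ddit4 and Mt1. Their 15 pairs had r between 0.79 and 0.97, and between 0.72 and 0.98 within genotypes. Without the 2 arrays farthest from the median of the first gene of a pair, they spread more widely. The r was then 0.97 for Fkbp5 and Ddit4, 0.57 for Zbtb16 and Sgk1, 0.48 for Ddit4 and Mt1 and -0.14 for Sgk1 and Mt1. Several pairs of the block thus rested on those arrays, and the median over all 45 pairs of members was 0.43. Mt2 joined the block within genotypes, with r of 0.93 to Mt1, 0.89 to Fkbp5 and 0.84 to Ddit4. Over all arrays it was farther off, at 0.74, 0.74 and 0.43.

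Klf9 and Mertk ran opposite to each other, with r = -0.94 and rho = -0.89 (exact permutation p = 0.0111 and 0.0333, adjusted p = 0.0694 and 0.167). Without wild-type replicates 1 and 3 the r was -0.88, and within genotypes -0.87. Angptl4 had no clear tie to the block, with r between -0.38 and 0.02 to its 6 genes. Its r to Klf9 was 0.74 (rho = 0.60, exact permutation p = 0.10 and 0.242, adjusted p = 0.217 and 0.435), and -0.29 without wild-type replicates 1 and 3, so that relation rested on those arrays.

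**Figure D4:**
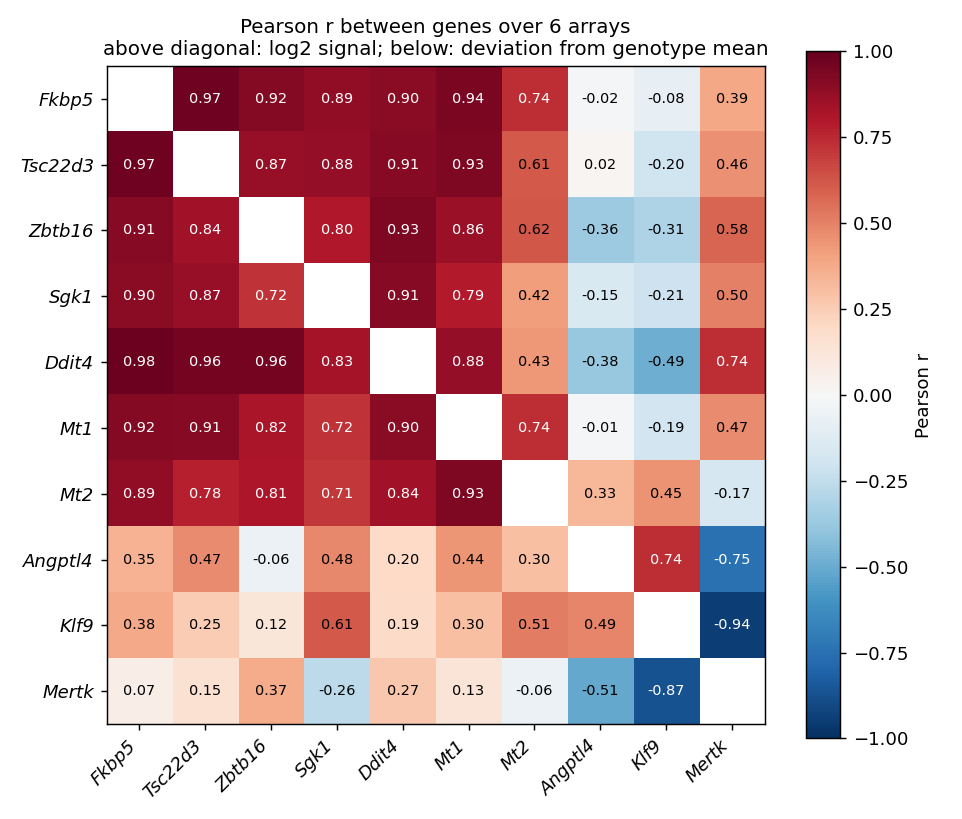
Pearson r between each pair of the 10 genes over the 6 arrays, from the log2 signal above the diagonal and from deviations from the genotype mean below it. The upper left block of Fkbp5, Tsc22d3, Zbtb16, Sgk1, Ddit4 and Mt1 is positive on both sides of the diagonal, and Klf9 and Mertk are opposed at -0.94 and -0.87.

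The genes most like 3 members over the 6 arrays were taken from the genes tested, with predicted genes, microRNAs, small nucleolar RNAs and smell receptor families left out. Nearest to Fkbp5 were Msh3, a DNA mismatch repair gene (r = 0.997), Lrmda (r = 0.994) and Lmod1, a smooth muscle actin nucleator (r = 0.991). Tsc22d3 ranked 8 in that order, and 80 genes had an r of at least 0.9 to Fkbp5. Of the members, Tsc22d3, Mt1 and Zbtb16 reached that level and the others did not, so an r this high was not confined to members. Over all pairs of the genes tested it was uncommon, since 4.56% had an r of at least 0.8. Nearest to Ddit4 were Cebpb, a transcription factor that glucocorticoids also induce (r = 0.994), Skap2, an adaptor protein (r = 0.993), and Ttc14 (r = 0.992). Cebpb measured 6.76, 6.87 and 7.03 in knockout replicates 1 to 3, against 6.54, 6.51 and 6.85 in wild-type replicates 1 to 3. Nearest to Mt2 were Oasl2 (r = 0.989) and Rnf213 (r = 0.982), both interferon-inducible, and Il33, an alarmin cytokine (r = 0.976). Oasl2 was highest on the same array as Mt2, wild-type replicate 3, at 6.56, 6.34 and 6.52 in knockout replicates 1 to 3, against 6.39, 6.33 and 7.10 in wild-type replicates 1 to 3.

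The receptor and its partners bind the hormone and set how strongly targets answer. Of 15 tested genes for the receptor, its chaperones, ligand enzymes and cofactors, 4 measured higher and 11 lower, with a median of -0.06 and 0 past the adjusted threshold in limma. At an unadjusted p under 0.05 were 2, both lower, near the 13.7% of all probe sets in either direction and 9.02% in the lower direction. Nr3c1 itself measured 7.44, 7.35 and 7.25 in knockout replicates 1 to 3, against 7.61, 7.65 and 7.55 in wild-type replicates 1 to 3. These genotypes did not overlap, as in 12.9% of all probe sets in the lower direction (log2 change -0.26, SE 0.07, unadjusted p = 0.00891, limma adjusted p = 0.199). The other was Hsp90aa1, a chaperone that holds the receptor, at -0.20 (unadjusted p = 0.0252). Nrip1, a corepressor, and Ncoa2, a coactivator, measured -0.16 and -0.12. Hsd11b1, which regenerates active hormone inside cells, measured 0.17 with overlapping genotypes.

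Other genes known to respond to glucocorticoids were mixed. Of 21 tested, 13 measured higher and 8 lower, with a median of 0.07 and 0 past the adjusted threshold in limma, while 3 had an unadjusted p under 0.05, near the 13.7% of all probe sets. Nfkbia, the inhibitor of NF-kappaB, measured 8.40, 8.46 and 8.67 in knockout replicates 1 to 3, against 8.31, 7.90 and 8.24 in wild-type replicates 1 to 3 (log2 change 0.36, unadjusted p = 0.0202, limma adjusted p = 0.269). Sult1a1, a sulfotransferase, measured 0.30 and Arrdc2, an arrestin-domain protein, 0.33 (unadjusted p = 0.0179 and 0.055). Dusp1, a phosphatase of MAP kinases that is also an immediate early gene, measured -0.39 (unadjusted p = 0.0128). The muscle ubiquitin ligase genes Trim63 and Fbxo32 measured 0.08, without overlap, and 0.13, with overlap. In the list of 21, genotypes did not overlap in 3 higher and 2 lower genes, beside 6.12% and 12.9% of all probe sets.

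The array order was also read in this list. Wild-type replicate 2 was the lowest array for 9 of the 21 genes, ties included, and for 15.8% of all genes. Wild-type replicate 3 was the highest for 5 of the 21, as was wild-type replicate 1, against 14.7% and 36.4% of all genes, and knockout replicate 3 for 9, against 13.3%. Lpin1, at 9.14 in both knockout replicate 3 and wild-type replicate 3, was counted for the knockout array only. The shares over all genes divide ties between the tied arrays. Ptgds and Pdk4 are given as examples chosen after their values were seen. Ptgds, a prostaglandin synthase that the receptor induces in cardiomyocytes, measured 9.99, 9.96 and 9.87 in knockout replicates 1 to 3, against 9.75, 9.05 and 10.18 in wild-type replicates 1 to 3. Pdk4, the kinase that blocks pyruvate oxidation, measured 10.90, 10.41 and 10.70 in knockout replicates 1 to 3, against 10.49, 10.11 and 11.21 in wild-type replicates 1 to 3. In both, as in Fkbp5, wild-type replicate 3 was the highest array and wild-type replicate 2 the lowest.

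Since the 10 genes answer to other signals, lists for those signals were set beside them. Immediate early genes, which are switched on within minutes of a stimulus, had the median farthest from 0 of these lists, -0.40, and 11 of 12 measured lower and 1 higher in the knockout, where 40.9% of all probe sets measured higher. An unadjusted p under 0.05 was found for 4 of the 12, all lower, against 9.02% of all probe sets in that direction, and 0 passed the adjusted threshold in limma. Fos measured 4.68, 4.78 and 4.79 in knockout replicates 1 to 3, against 6.27, 6.07 and 4.83 in wild-type replicates 1 to 3. Nr4a1, an orphan nuclear receptor, measured 6.37, 7.30 and 6.91 in knockout replicates 1 to 3, against 8.36, 8.65 and 7.18 in wild-type replicates 1 to 3. Wild-type replicates 1 and 2, low in Fkbp5 and Ddit4, were thus the high arrays for Fos and Nr4a1, and wild-type replicate 3 lay near the knockouts in both. Whether the 2 orders of arrays are related was not tested.

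PPAR and fasting genes, the other group to which Angptl4 belongs, measured lower in 11 of 12, with a median of -0.12 and 4, all lower, at an unadjusted p under 0.05, where 9.02% of all probe sets were lower at that level. None passed the adjusted threshold in limma. The smallest p-values were those of Slc25a20, which carries acylcarnitine into mitochondria, at -0.35, Acot2 at -0.94 and Acot1 at -0.42, both acyl-CoA thioesterases, and the lipid droplet gene Plin2 at -0.27. Adipocyte markers had a summed log2 signal of 10.16 to 10.24 in the knockout and 10.01 to 10.27 in the wild type. That sum was mostly Fabp4, at 9.61 to 9.92, so it says little of the other markers. Of 7 tested adipocyte markers, 4 measured higher and 3 lower in the knockout. Of 8 such markers with a named probe set, Adipoq, which defines the cell type, lay under the filter of 3.45, between 2.72 and 3.32 on all arrays.

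The lists that Ddit4, the metallothioneins and Klf9 share had medians near 0. Of 13 hypoxia genes 8 measured higher and 5 lower (median 0.07), and the 2 at an unadjusted p under 0.05 were lower, the glucose transporter gene Slc2a1 at -0.28 and the oxygen sensor gene Egln3 at -0.44. Of 11 integrated stress response genes 4 measured higher and 7 lower (median -0.03), with Ddit3 at 0.21 and the p53 and ATF4 target Sesn2 at -0.31. Of 9 metal response genes 3 measured higher and 6 lower (median -0.02), and Mtf1, which binds the metal response element, measured -0.23 without overlap (unadjusted p = 0.014). Of 14 clock genes 3 measured higher and 11 lower (median -0.08), with Dbp and Nr1d1, outputs of the clock that like Klf9 vary over the day, at -0.47 each. No gene of these 4 lists passed the adjusted threshold in limma, and an unadjusted p under 0.05 was found for 2 of the hypoxia, 2 of the stress response, 1 of the metal and 3 of the clock genes, beside 13.7% of all probe sets.

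**Figure D5:**
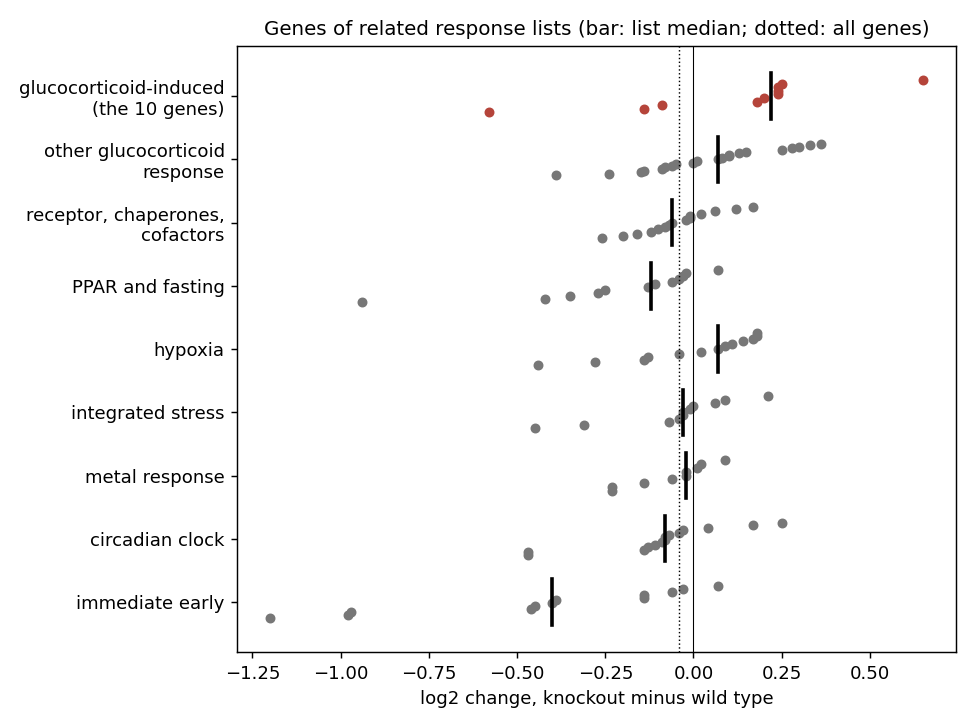
Log2 change (knockout minus wild type) of each tested gene in the 10 glucocorticoid-induced genes (red) and in 8 related response lists (grey); black bars are list medians and the dotted line is the median of all genes tested, -0.04. The 10 genes have a median of 0.22, the other glucocorticoid response genes 0.07 and the immediate early genes -0.40.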

How the data were processed

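Per the labels' protocols, total RNA was extracted with TRIzol and 100 ng was labelled with biotin for Affymetrix arrays. The authors deposited log2 expression values for 35556 probe sets on 6 arrays. Their processing notes name MAS5 without a version or role. Background correction, scaling and genome build were not given in the sources used here. The log2 scale was read from the values, and array medians lay between 4.60 and 4.71.

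Genes were named from the platform annotation (21789 probe sets with 1 symbol, 1621 with several, 12146 not listed), updated through RefSeq (GRCm38.p6, 21698 matched). Genotypes were compared with limma 3.58.1 in R 4.3.3 (lmFit, eBayes with an intensity trend, two-sided) over the 24898 probe sets with a mean at or above the 30th percentile, 3.45. P-values were Benjamini-Hochberg adjusted over all of them at a threshold of 0.05. Genes with several probe sets were represented by the brightest, and marker levels were summed as linear signal and given as log2. Correlations were computed with numpy 2.4.6, with exact two-sided permutation p-values adjusted over 45 pairs. From each list, up to 4 genes with the smallest p were named. For Fkbp5, Ddit4 and Mt2 the 3 genes with the highest r were named, leaving out predicted genes, microRNAs, small nucleolar RNAs and smell receptor families. Also named, after their values were seen, are Hsd11b1, Trim63, Fbxo32, Ptgds, Pdk4, Myl7, Adipoq, Myh11, Tagln and Acta2. The test was tested on simulated data. The 10 members and the lists were chosen with earlier results of these data known. The number of arrays limits the precision.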

Additional observations from a re-analysis of the deposited data

How the results depend on the processing

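No member and no other glucocorticoid response gene passed the adjusted threshold in any of the 16 alternative settings. Over all probe sets the number that passed ran from 0 with the replicate block to 361 with annotated probe sets only. Of the members' log2 changes, 1 turned: as single arrays were left out, Mt2 ran from -0.24 without wild-type replicate 2 to 0.15 without wild-type replicate 3. The members' median change, 0.22, stayed positive and ran from 0.08 to 0.33 as single arrays were left out. The count at an unadjusted p under 0.05, 2, then ran from 0 to 6, and the count without overlap, 1, from 1 to 7. The median r of the 45 pairs, 0.50, then ran from 0.47 to 0.67, an alternative chosen after seeing the data, as was the count of members higher in the knockout, 7 or 8 in every setting. It was 0.63 after quantile normalization. Removing single arrays leaves fewer samples; beyond that the cause of these shifts was not tested. The labels number replicates 1 to 3 in both genotypes. With the replicate block, 4 members had an unadjusted p under 0.05 (Zbtb16, Ddit4 and Mt1 higher, Angptl4 lower) and 0 passed the adjusted threshold. Over all probe sets tested, same-numbered arrays did not deviate together (r of deviations -0.059, 0.021 and -0.057), so the numbers are not taken to pair the samples. In the members, however, replicate 3 was the highest knockout array in 8 of 10 genes and the highest wild-type array in 8 of 10. The reason for this was not tested.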
